A study of Mus musculus with 10 samples.

Results

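The cells described here were primary smooth muscle cells (SMCs) of the aorta from wild type mice, for which the labels name no treatment. They were chosen by their sample titles, and they made up 5 of the 10 samples of a series that asked how the transcriptome of vascular SMCs differs when c-Kit signalling is lost. The other 5 samples, from KitW/WV mice, are not compared here. Per the protocol in the labels, cells were freed from the aortas of 5 wild type mice with collagenase and expanded in culture to passage 2. RNA was isolated with an Omega EZNA kit, and the Nugen Universal Plus mRNA-Seq kit was used for the libraries. The labels give no age, sex, strain background or culture medium, and no label ties a numbered library (WT 1 to WT 5) to 1 particular mouse, so the spread between libraries may be partly technical. Counts assigned to genes totalled between 42040255 and 51309067 per library. Levels are given as CPM (counts per 1000000 counts), scaled with trimmed mean of M values (TMM) factors over the 5 libraries. Values are given as mean ± SD of 5 libraries or, where a gene matters, for WT 1 to WT 5 in that order. Levels of different genes were set beside each other as CPM per kilobase of exon, and an order given by CPM is named as such because it also follows length.

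Vascular SMCs form the media of the aorta. In the vessel wall they are contractile: calcium entering the cell activates calmodulin and myosin light chain kinase, which phosphorylates the regulatory light chain so that smooth muscle myosin pulls on actin filaments. The genes of this apparatus depend on serum response factor (SRF), which binds a DNA element called the CArG box, and on its coactivators of the myocardin family. When SMCs are placed in culture they leave this state in part, divide, and secrete large amounts of collagen, fibronectin and other matrix.

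Of 21918 protein coding genes in the table, 11536 (52.6%) reached 1 CPM in every library and are called detected. With genes of other classes, 12121 genes were detected, of which 8916 had a mean of at least 10 CPM, 1876 of at least 100 CPM and 111 of at least 1000 CPM. These 111 genes held 29.5% of all counts. Between 506 and 578 genes made up 50% of the counts of a library, and the 10 most abundant genes held 10.5% ± 0.655 of them. The defining SMC markers Acta2, Tagln, Myh11 and Cnn1 were detected in every library, at means between 291 and 6970.1 CPM, and none of the 4 was absent from any library. Transcripts of the Y-linked genes Ddx3y, Eif2s3y, Kdm5d and Uty were detected in all 5 libraries and Xist stayed at or below 0.200 CPM.

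WT 2 stood apart from the other 4 libraries. Many values that rest on it are given library by library or also without it, but some are given only as mean ± SD. Across detected genes, the Pearson correlation of log2 CPM was between 0.959 and 0.980 for the 4 pairs that included WT 2 and between 0.991 and 0.996 for the 6 pairs that did not. Genes are not independent replicates, so this is a description. The first principal component held 78.2% of the variance, with WT 2 at 43.6, WT 3 at 0.544, WT 1 at -5.06, WT 5 at -17.6 and WT 4 at -21.4. For each gene, the gap ratio was the gap between the most extreme library and its nearest neighbour, as a share of the range over the 5. It was compared with Dixon's 95% critical value, which chance passes in about 1 in 20 genes, counting all 5 libraries and both sides. Counted in that way, 1219 of the 12121 detected genes were past it. WT 2 was past it above the other 4 for 576 of 12121 detected genes (4.75%) and below them for 442 (3.65%), while each other library was past it for 12 to 31 genes above and 17 to 39 below. WT 2 was also the highest library for 40.4% of detected genes and the lowest for 35.3%. No pair of libraries agreed within sampling noise: chi-square per degree of freedom was between 19.3 and 259 over the 10 pairs, so none looked like 1 library deposited more than once. This does not show that they came from separate mice.

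**Figure D1:**
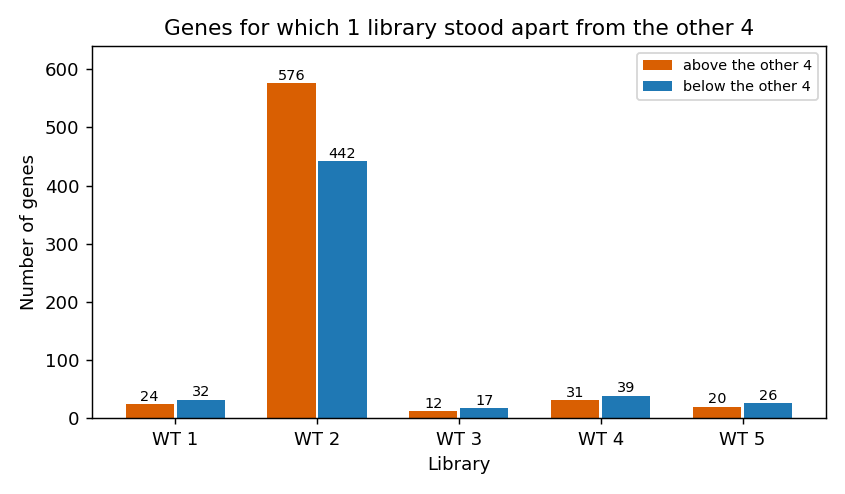
Number of detected genes (vertical axis) for which each library (horizontal axis) was past the critical gap ratio above the other 4 (orange) or below them (blue). WT 2 has 576 and 442 genes, and no other library has more than 39 on either side.

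The transcriptome was led by secreted matrix and by actin. Thbs1, which encodes the matricellular glycoprotein thrombospondin 1 (chr2:118111876-118127133, GRCm38), was the most abundant gene by CPM, with 24256, 18506, 22026, 23363 and 22742 CPM. Fn1, the gene of fibronectin (chr1:71585520-71653200), followed with 21472, 14802, 19026, 23834 and 19987 CPM. Both were lowest in WT 2. Others among the 10 highest by CPM were Col1a1 (9148 ± 2186), Actb (8602 ± 1687), Fbln2, the gene of the elastic fibre protein fibulin 2 (7985 ± 882), Bgn, the gene of the small proteoglycan biglycan (7766 ± 929), mitochondrial mt-Co1 (7377 ± 1303), Acta2 (6970.1 ± 802) and the elongation factor gene Eef1a1 (5598 ± 344).

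Length moved this order, since long transcripts collect more counts. Per kilobase of the union of all annotated exons, the highest nuclear protein coding genes were Thbs1 (3652 CPM per kilobase), Actb (3211) and Acta2 (3174), and the galectin gene Lgals1 (2325) was among the 5 highest. With the length of the principal transcript in place of the exon union, they were Actb (4480.4), Thbs1 (3792), Acta2 (3425) and Bgn (3210.5). The same 3 genes led on both scales, but which of them came first depended on the length used. Col1a1 (1394 and 1543 on the 2 scales), Tagln (1443 and 1799), Ccn2, the gene of connective tissue growth factor (1908 and 2276), Sparc, a collagen-binding glycoprotein gene (1253 and 2064), and S100a6, a calcium-binding protein gene (1138 and 2129), were among the 20 highest on both. Of the 100 nuclear protein coding genes highest per kilobase on average, each library alone had between 87 (WT 2) and 97 (WT 3) among its own 100.

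The contractile apparatus was present at unequal levels of its parts. Acta2, which encodes smooth muscle alpha-actin (chr19:34241090-34255590), stood at 6421, 6655, 6852, 6546 and 8376 CPM. WT 5 was above the other 4, which lay within a narrow range. Tagln, the gene of the actin-binding protein transgelin or SM22-alpha (chr9:45929619-45936058), gave 2638, 3070.1, 2802, 2562 and 3271 CPM, highest in WT 5 and WT 2. It shares exon bases with a gene on the opposite strand and the strand setting of the counting is not known. Cnn1, the gene of calponin 1 (chr9:22099216-22109630), gave 428, 440.1, 463, 432 and 622 CPM, again with WT 5 apart from the rest. Myh11, the smooth muscle myosin heavy chain gene and the most specific of the 4 markers (chr16:14194535-14291372), was the lowest of them, also per kilobase, at 229, 234, 300.0, 280.3 and 409.7 CPM, and was highest in WT 5.

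Among the actin genes, the cytoplasmic Actb and the smooth muscle Acta2 were the most abundant. The ratio of Acta2 to Actb per kilobase was 1.02 ± 0.219 within libraries on exon union lengths and 0.787 ± 0.170 on principal transcripts. It was lowest in WT 2, where Actb reached 11521 CPM against 7231 to 8405 in the other 4. Cytoplasmic Actg1 gave 1491, 1850.5, 1522, 1474 and 1545 CPM, with WT 2 apart above the others. Per kilobase, Actg1 (593 ± 58.5), enteric-type Actg2 (181 ± 66.8) and skeletal Acta1 (17.1 ± 4.69) came after them, and cardiac Actc1 was at or below 0.120 CPM. Actg2 was the most variable of them, with 188, 209.8, 326, 246 and 443 CPM and the highest value in WT 5.

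Nonmuscle myosin exceeded smooth muscle myosin. Myh9, the gene of nonmuscle heavy chain A, stood at 297 ± 28.6 CPM per kilobase, Myh10, of nonmuscle heavy chain B, at 59.4 ± 7.24, and Myh11 at 38.2 ± 9.63. The ratio of Myh9 to Myh11 was 8.18 ± 2.30 on exon union lengths and 12.1 ± 3.40 on principal transcripts, and in no library was Myh11 above Myh10. Only these 3 of 11 heavy chain genes in the list were detected. Among the light chains, regulatory Myl9 gave 813, 826, 849.6, 881 and 1119 CPM, with WT 5 apart above the others, and essential Myl6 gave 1091, 1027, 995, 1011 and 1115 CPM with a coefficient of variation (CV, SD as a percent of the mean) of 5.00%. Myl12a, a regulatory light chain shared by nonmuscle cells, stood at 215 ± 7.28 CPM. Myl12b (9.30 ± 1.56, or 9.95 ± 0.669 without WT 2), Myl6b (9.96 ± 1.35) and Myl4 (3.66 ± 0.564) were low.

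Tropomyosins, which lie along the actin filament, were all detected. Tpm1 stood at 1682 ± 195 CPM, Tpm4 at 1559 ± 138, Tpm2 at 1125 ± 135 and Tpm3 at 242 ± 30.6, or 229 ± 14.1 without WT 2. Per kilobase Tpm4 was the highest on exon unions (708 against 259 for Tpm1) and Tpm1 on principal transcripts (886 against 733), so the order of these genes depended on the length used. Tpm3 was the lowest with both. Cnn2, a calponin gene that is not confined to smooth muscle, stood at 423 CPM per kilobase against 174 for Cnn1, and Cnn3 at 170.1. The ratio of Tagln to its widely expressed relative Tagln2 was 9.00 ± 2.18 per kilobase of exon union. That ratio was lowest in WT 2, where Tagln2 reached 567 CPM against 259 to 348 in the other 4.

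Of 35 regulators and scaffolds of contraction, 33 were detected. The highest per kilobase were the intermediate filament gene Vim (791 ± 183), the actin crosslinkers Flna (529 ± 27.3) and Actn1 (400.2 ± 12.2), the LIM-domain genes Csrp1 (279 ± 44.4) and Fhl1 (265 ± 29.02), and Cald1, the gene of caldesmon (261 ± 28.4), on exon unions. Vim gave 3375, 5297, 3520.2, 3349.7 and 3226 CPM, with WT 2 apart above a narrow range. Flna and Actn1 were steady, with CVs of 5.17% and 3.05%. Mylk, the gene of myosin light chain kinase, was variable, at 119, 95.2, 161, 180.4 and 256 CPM, with WT 2 lowest and WT 5 highest. Aoc3, the gene of a vascular amine oxidase, varied in the same range (87.6, 59.02, 82.8, 135 and 136 CPM). The muscle intermediate filament gene Des was low, at 12.6 ± 1.72 CPM.

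Across the 6 lists of actin, myosin, tropomyosin, calponin and contractile genes, 56 of 73 members were detected, and they held 5.82% ± 0.427 of counts. This share is not that of smooth muscle genes alone, since the lists also hold cytoplasmic Actb, nonmuscle Myh9, Flna and Vim. WT 5 was the highest library for 28 of the 56, against 16.4% of all detected genes, and the lowest for 1 of them, Vim, against 18.4%. The 28 included Acta2, Actg2, Myh11, Tagln, Cnn1, Myl9, Tpm1, Tpm2, Cald1, Mylk and Csrp1. The sum over the myosin light chains was 2153, 2089, 2072, 2132 and 2476 CPM, with WT 5 apart.

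**Figure D2:**
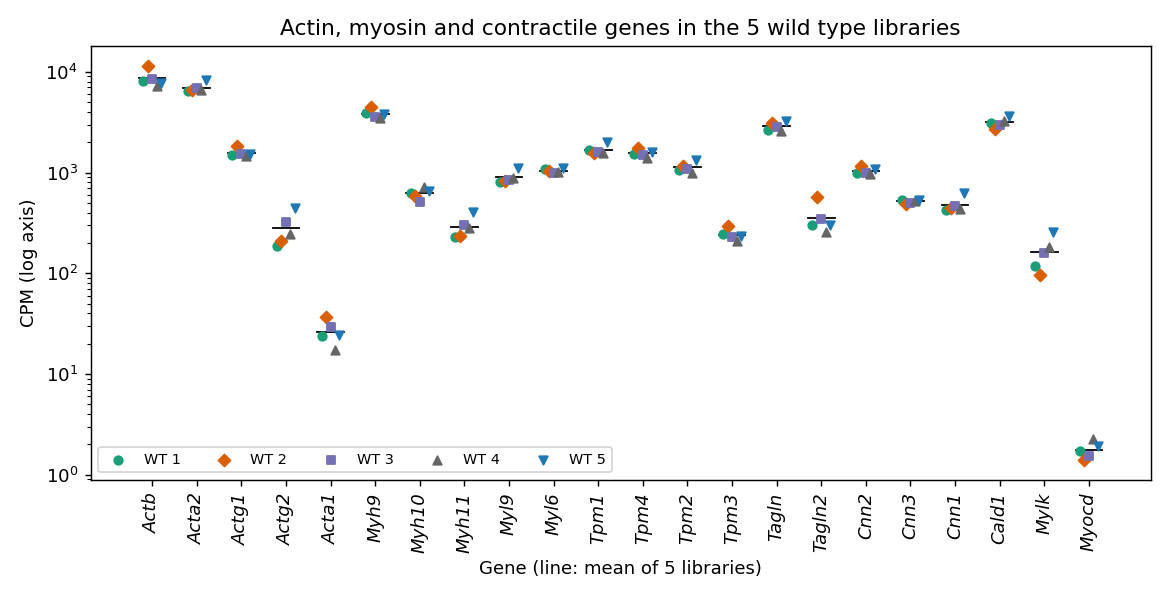
CPM on a log axis for 22 actin, myosin, tropomyosin, calponin and regulatory genes, with 1 symbol per wild type library and a line at the mean of 5. WT 5 (blue triangle pointing down) is the highest symbol for Acta2, Actg2, Myh11, Myl9, Tagln, Cnn1 and Mylk, and Myocd lies near the detection limit of 1 CPM.

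The list of myocardin, SRF and their cofactors, which also holds factors that repress SMC genes, was detected in full (20 of 20). Myocd, the gene of myocardin, the coactivator found in smooth and cardiac muscle, was close to the limit with 1.71, 1.40, 1.52, 2.28 and 1.92 CPM. The more widely expressed coactivator genes Mrtfa (157 ± 6.86 CPM) and Mrtfb (47.6 ± 3.27) were higher, also per kilobase (25.7 and 5.30 against 0.275 for Myocd). Srf itself stood at 99.1, 119.7, 103, 94.7 and 102 CPM, and Tead1, a DNA-binding partner of YAP and TAZ, at 499 ± 40.5 CPM. Wwtr1, which encodes TAZ, gave 168 ± 14.7 CPM, and Klf4, a repressor of SMC genes, 145 ± 14.4 CPM with WT 5 lowest at 123. The list's median CV was 9.00%, near the medians of 8.95% for all detected genes between 10 and 100 CPM and 8.93% between 100 and 1000 CPM.

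Promoters of the contractile genes were searched for the element that SRF binds. Of the 56 detected contractile genes, 48 were matched by symbol in a table of promoters from RefSeq on GRCm38.p6 (250 bases before to 50 after the start). A perfect CArG box, which reads the same class on both strands, was found in 9 of the 48 (18.8%), against 144 of 9136 detected protein coding genes (1.58%), 145 of 7377 undetected ones (1.97%) and 535 of all 32851 promoters in the table (1.63%). The share also differed with abundance: 8 of the 100 genes highest per kilobase had a match (8%). In the highest 10th 27 of 914 genes had one (2.95%), and in the lowest 10th 10 of 914 (1.09%). Whether the contractile share differs from that of equally abundant genes was not tested. Because these lists were drawn up from genes known for this function, the contractile share is a description and was not tested. Windows around 6 of the matches, chosen because they are the most abundant of the 9 genes with a match, are printed 5′ to 3′ on the strand of the gene, with the CArG box in capitals.
Myl9: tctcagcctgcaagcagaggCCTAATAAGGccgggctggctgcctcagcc
Actg1: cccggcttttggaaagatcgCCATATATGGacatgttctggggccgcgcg
Cnn2: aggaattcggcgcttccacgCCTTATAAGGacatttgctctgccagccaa
Myl6: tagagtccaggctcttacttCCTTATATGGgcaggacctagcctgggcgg
Vcl: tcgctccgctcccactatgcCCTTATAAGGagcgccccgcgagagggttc
Fhl1: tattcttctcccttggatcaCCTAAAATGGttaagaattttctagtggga
In Myl9 the window covers chr2:156775283-156775332 on the plus strand and the box starts 161 bases before the gene's start. In Actg1 it covers chr11:120348556-120348605 on the minus strand, with the box 90 bases before the start. In Cnn2 (chr10:79988524-79988573, plus strand) the distance is 56 bases and in Myl6 (chr10:128493030-128493079, minus strand) 50 bases. In Vcl, the gene of the adhesion protein vinculin (chr14:20929151-20929200, plus strand), it is 227 bases, and in Fhl1 (chrX:56779561-56779610, plus strand) 102 bases. The other 3 genes with a match were Acta1, Ldb3 and Fhl2. Acta2 and Cnn1 are in the table and have no perfect match within this window, which says only that these letters are not there. Tagln and Myh11 have no entry in the table, so they were not searched. The levels of the 6 genes ran from 898 CPM for Myl9 to 1577 CPM for Actg1, with Vcl at 1492, 1268, 1269, 1282 and 1291 CPM and WT 1 above the other 4.

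A second element was compared with abundance over all promoters in the table. The letters TATAAA, on the strand of the gene and between 45 and 15 bases before its start, were found in 113 of 9136 detected protein coding genes (1.24%). Among the 914 genes of the highest 10th by CPM per kilobase, 28 (3.06%) had them, and among the 914 of the lowest 10th, 18 (1.97%). Undetected genes had them more often, in 403 of 7377 (5.46%).

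The matrix lists (fibrillar and other collagens, elastic fibre genes, adhesive and matricellular proteins, proteoglycans, and laminins with nidogens) had 102 of 124 members detected and held 12.8% ± 1.69 of counts, or 13.5% ± 0.695 without WT 2. WT 2 had the lowest share, 10.0%, and was the lowest library for 72 of the 102 detected members, against 35.3% of all detected genes. Median CVs over the 6 lists ran from 16.1% for adhesive and matricellular genes to 35.4% for proteoglycans, with fibrillar collagens at 29.2%. Without WT 2 these 3 were 11.9%, 17.5% and 12.5%. In bulk libraries such as these, fewer cells of a kind and less RNA per cell cannot be told apart.

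All 11 fibrillar collagen genes were detected, and each had its lowest value in WT 2. The summed level was 23495, 14986, 22799, 25091 and 29829.8 CPM. Col1a1, of type I collagen, led per kilobase and stood at 9355, 5748, 9019, 9812 and 11804 CPM. Col1a2, of its partner chain, stood at 4876, 3338, 4869.6, 5479 and 6509 CPM. Col1a2 came second on principal transcripts (938 CPM per kilobase against 599.9 for Col5a2), but Col5a2 did on exon unions (414 against 404). The ratio of Col1a1 to Col1a2 per kilobase varied little between libraries, at 3.44 ± 0.138 on exon unions and 1.64 ± 0.0658 on principal transcripts. Col3a1 varied more, at 1636, 774, 1561, 2088 and 2717 CPM, so that the ratio of Col1a1 to Col3a1 was 8.37 ± 1.79 (exon unions). That ratio was highest in WT 2, at 11.1. Col5a1 (2872 ± 499.6 CPM, or 3083 ± 189 without WT 2) and Col5a2 (3974 ± 741 CPM), whose products nucleate fibrils, kept a ratio of 0.818 ± 0.0389. The cartilage collagen gene Col2a1 was detected at 238, 104, 185, 363 and 192 CPM.

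Basement membrane collagen was led by the pair Col4a1 (1952 ± 235 CPM) and Col4a2 (1451 ± 138 CPM), which share a promoter region head to head. Their per-kilobase ratio was 1.19 ± 0.0369, the steadiest of the 3 pairs given here. Col6a1, of a microfibrillar collagen, gave 614, 336, 497, 628 and 549 CPM, the fibril-associated Col12a1 1423 ± 390.4 CPM and the vessel wall collagen Col8a1 677 ± 157 CPM. Per kilobase of exon union these 3 stood at 119.9, 93.5 and 86.5. Col14a1 gave 456, 124, 368, 591 and 503 CPM and Col28a1 164, 18.1, 95.96, 281 and 247 CPM, both with WT 2 far below the others. Col15a1, a basement membrane zone collagen, differed from these, with 22.8, 35.7, 36.04, 34.6 and 57.8 CPM and WT 5 highest.

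All 20 elastic fibre genes were detected. Fbln2 gave 8524, 6414, 8321, 8304 and 8364 CPM: the other 4 libraries had a CV of 1.20% and WT 2 lay below them. Lox, the gene of the lysyl oxidase that crosslinks elastin and collagen, gave 5601, 2673, 5103, 7029 and 6897 CPM, with WT 2 under every other library. Loxl1 (666 ± 50.5 CPM), Fbn1, the gene of fibrillin 1 (1651 ± 159.8), Ltbp2 (1160.1 ± 84.1) and Efemp2, of fibulin 4 (474 ± 44.8), had CVs under 10%. Elastin itself (Eln) stood at 756, 385, 508, 981 and 767 CPM, and its per-kilobase level was 0.0598 ± 0.0138 of that of Col1a1 on exon unions and 0.114 ± 0.0262 on principal transcripts. Fbn2, the fibrillin of development, was at 2.37 ± 1.16 CPM.

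Among adhesive and matricellular genes, Ccn2 gave 5848, 4601, 5438, 5919.7 and 5480.4 CPM and its relative Ccn1 2330.2, 1848, 2202, 2193 and 2004 CPM, both known targets of YAP and TAZ, and both lowest in WT 2. Sparc stood at 4748 ± 775 CPM and Igfbp7 at 819 ± 73.7 CPM, with CVs of 16.3% and 9.01%. Ccn3 (346, 79.1, 304, 638 and 501 CPM) and Postn, the gene of periostin (178, 93.1, 234, 520.3 and 514 CPM), varied widely, with WT 2 lowest and WT 4 and WT 5 highest. Spp1, the gene of osteopontin, went the other way, with 24.1, 72.05, 30.4, 18.3 and 18.8 CPM. Spp1 was highest in WT 2.

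Proteoglycan transcripts were dominated by Bgn, with 7491, 6527, 7438, 8819.9 and 8555 CPM. The basement membrane heparan sulfate core gene Hspg2 gave 2031, 2644, 2179, 1804 and 1697 CPM and was highest in WT 2. Lowest in WT 2 were the small matrix genes Prelp (1421, 300.0, 1058, 1672 and 1519.5 CPM), Ogn (152, 63.9, 112, 225 and 129), Dcn, of decorin (108, 22.3, 95.4, 183 and 188), and Lum, of lumican (23.8, 2.76, 25.4, 49.2 and 50.7). Per kilobase, Bgn stood at 1273 and Dcn at 20.5 CPM. Highest in WT 2 were Cspg4, of the NG2 proteoglycan (57.8, 162, 66.7, 46.1 and 39.6), and Srgn, of serglycin (1.67, 11.6, 1.70, 1.66 and 1.25). The nidogen genes split as well: Nid1 gave 1315, 2169.7, 1389, 1155 and 1106 CPM, highest in WT 2, and Nid2 483, 186, 371, 424 and 534 CPM, lowest in WT 2. Of the laminin chain genes, Lamb2 (497 ± 82.98 CPM, or 531 ± 37.8 without WT 2), Lamc1 (352 ± 25.7), and Lamb1 (316 ± 73.7, or 285 ± 28.5) led per kilobase with both lengths.

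Collagen folding and crosslinking genes were all detected (25 of 25). Serpinh1, the collagen chaperone HSP47, stood at 1979, 1787, 1871, 1871 and 2009 CPM with a CV of 4.72%, P4hb at 1162 ± 121 CPM and Fkbp10 at 395 ± 15.8 CPM. Plod2, the gene of a lysyl hydroxylase, was apart in WT 2, at 1199, 509, 1083, 1322 and 1094 CPM. Loxl2 was highest in WT 5, with 88.5, 87.97, 135, 155 and 268 CPM, and Adamts2, of a procollagen protease, was lowest in WT 2 (436, 191, 406, 542 and 589.7 CPM).

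Among 40 proteases and inhibitors, of which 33 were detected, the tissue inhibitors of metalloproteinases Timp1 (1312 ± 131 CPM per kilobase), Timp2 (543 ± 43.4) and Timp3 (509 ± 214) were among the 4 highest with both lengths. Timp1 gave 1219, 1218, 1297, 1009 and 1081 CPM and Timp3 4879.6, 1336, 3729, 5863 and 4934 CPM, the latter with WT 2 far under the rest. The inducible metalloproteinase genes Mmp3 (8.74, 15.1, 9.89, 3.16 and 9.10 CPM) and Mmp12 (3.04, 3.35, 4.16, 1.33 and 1.08 CPM) were low and variable.

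Integrins, the receptors that bind this matrix, were detected for 18 of 26 genes. WT 2 was the highest library for 7 of the 18, near the 40.4% of all detected genes, and the lowest for 9, against 35.3%. Itgb1, the common beta chain, stood at 2202, 2509.7, 2298, 2089.7 and 2342 CPM. Its fibronectin-binding partner Itga5 (777 ± 106 CPM) exceeded the alpha-v gene Itgav (511 ± 68.2, or 483 ± 30.5 without WT 2), with a ratio of 3.32 ± 0.288 per kilobase of exon union. Itgb5 (378, 220.1, 362, 419 and 416 CPM) and the collagen receptor chains Itga11 (182, 84.9, 161, 330.3 and 341 CPM) and Itga1 (104, 56.03, 93.2, 148 and 139 CPM) were lowest in WT 2, as was Itgb8 (12.7, 2.51, 10.4, 14.5 and 12.1). The collagen receptor chains Itga2 (70.6, 35.6, 59.9, 70.7 and 51.4 CPM) and Itga10 (4.13, 3.30, 4.89, 4.72 and 4.58) were lowest in WT 2 as well. Itga3, Itga6 and Itgb4, chains of laminin receptors, were highest in WT 2, as was the common chain Itgb1. Itga7 was lowest in WT 2, but only just under WT 4. Itga3 gave 27.5, 90.3, 27.03, 17.4 and 20.3 CPM, Itga6 7.93, 23.9, 8.69, 7.12 and 5.64 CPM and Itgb4 4.82, 12.03, 5.35, 2.59 and 3.26 CPM. Among these, only Itga3 was past the critical gap ratio. Itga7, a laminin receptor chain of contractile muscle, gave 6.60, 4.41, 6.75, 4.54 and 4.75 CPM. Itga8 stood at 54.1 ± 12.9 CPM and Itga9 at 50.3 ± 6.87 CPM.

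Of 38 receptor tyrosine kinase genes, 32 were detected. Axl, the Gas6 receptor, led at 1194, 1767, 1377, 999 and 1105 CPM, followed by Pdgfrb, the main platelet-derived growth factor receptor of mural cells, at 780.0, 519, 732, 831 and 812 CPM. Axl was highest and Pdgfrb lowest in WT 2. Pdgfra gave 305, 298, 303, 297 and 256 CPM, and the ratio of Pdgfrb to Pdgfra was 4.64 ± 0.974 per kilobase of exon union. That ratio was lowest in WT 2, at 3.185, and highest in WT 5, at 5.818. The collagen receptor gene Ddr2 (499 ± 35.6 CPM), Igf1r (304 ± 16.9), Ddr1 (298 ± 61.3), Fgfr1 (201 ± 17.4), Ryk (199 ± 11.3) and Egfr (186 ± 26.7) were lower. Without WT 2, Ddr1 stood at 323 ± 30.6 CPM and Egfr at 197 ± 12.97 CPM. Igf1r and Ryk had CVs of 5.56% and 5.68%, Fgfr1 of 8.65%.

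Kit, the receptor of stem cell factor and the gene altered in the other samples of the series, was transcribed at a low level in wild type cells (chr5:75574916-75656722). It gave 3.28, 5.16, 4.18, 4.51 and 4.10 CPM, a mean of 4.24 ± 0.682, with WT 2 highest and WT 1 lowest. Its CV of 16.1% lay near the median of 15.5% for detected genes with a mean between 1 and 10 CPM. Per kilobase it stood at 0.476 ± 0.0766, below Pdgfrb (134 ± 23.05), Axl (256 ± 59.9) and Flt1 (5.03 ± 0.663). Kitl, the gene of its ligand, stood at 70.96, 94.6, 75.4, 61.4 and 46.8 CPM. The mast cell markers besides Kit were at trace levels: Cpa3 at 0.150, 0.249, 0.0799, 0.468 and 0.240 CPM, Hdc at or below 0.200 CPM, and Mcpt4 and Fcer1a at 0 counts in all 5 libraries, which allows up to 3 counts per library.

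TGF-beta superfamily genes, which steer SMC contractile and matrix programmes, were detected for 27 of 29. Tgfb3 was the most abundant of the 3 TGF-beta ligands (191 ± 34.5 CPM per kilobase), above Tgfb2 (18.4 ± 5.53, with 120.3, 54.6, 103, 140.3 and 114 CPM in the 5 libraries) and Tgfb1 (10.96 ± 1.34); the order of the latter pair turned with the principal transcript lengths. The receptor genes Tgfbr2, Tgfbr3 and Tgfbr1 stood at 107 ± 14.1, 94.4 ± 13.2 and 31.1 ± 3.30 CPM. Eng, the accessory receptor endoglin, stood at 305, 347, 338, 297 and 321 CPM and Acvrl1, of ALK1, at 77.6, 59.8, 80.1, 92.1 and 89.7 CPM, both of which are also made by endothelial cells; Eng was highest and Acvrl1 lowest in WT 2. Acvr1 had a CV of 1.73%. Among secreted members, Fstl1 stood at 1750.4 ± 146 CPM, Inhba, of activin A, at 453 ± 41.4 CPM and Bmp1, of a procollagen protease, at 444 ± 135 CPM. Fstl1 led per kilobase with both lengths. Bmp4 (236, 114, 184, 275 and 232 CPM) and Gdf10 (49.3, 9.98, 41.7, 102 and 70.9 CPM) were lowest in WT 2 and highest in WT 4.

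Secreted signals were headed by Csf1, the gene of the macrophage growth factor M-CSF, at 5298, 5833, 5481, 3915 and 4128 CPM, with WT 4 and WT 5 under the other 3. Its receptor gene Csf1r stood at 19.3, 8.17, 16.3, 10.7 and 15.96 CPM. The chemokine gene Cxcl12 gave 3699, 1122, 2639, 4244 and 3588 CPM and Gas6 819, 225, 544, 1092 and 871 CPM, each lowest in WT 2. Vegfd (544, 192, 419, 638 and 553 CPM) and Vegfa (208, 147, 231, 269 and 364 CPM) were lowest in WT 2 as well. Ereg, of epiregulin (111, 160.5, 99.6, 60.4 and 58.6 CPM), was highest there. Fgf7 was steady, with a CV of 9.26% around 229 ± 21.2 CPM. The chemokine gene Cxcl14 was the most variable protein coding gene at 10 CPM or more once WT 2 was left out, with 34.8, 3.35, 64.2, 69.6 and 179 CPM and a CV of 72.7%. WT 2 was lowest and WT 5 highest. Il6st, the shared receptor chain of the IL-6 family, gave 1702, 1046, 1616, 1746 and 1464 CPM.

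Insulin-like growth factor binding proteins were led per kilobase by Igfbp2 (1796, 823, 1327, 1767 and 1896 CPM), with Igfbp7 next. Igfbp4 (572, 142, 343, 634 and 588 CPM) and Igfbp2 were lowest in WT 2. Igfbp3 was apart in WT 5, with 29.5, 29.99, 27.9, 31.3 and 46.9 CPM. Igfbp6 (30.2, 50.5, 35.5, 27.7 and 33.1 CPM) was highest in WT 2 and Igfbp5 (30.96 ± 6.41) was low. Igf1, their ligand, gave 21.9, 8.71, 25.4, 32.02 and 37.9 CPM, lowest in WT 2. The complement list had 10 of 20 members detected and was led per kilobase by the inhibitor gene Serping1 (271, 95.6, 232, 392 and 359 CPM). C3 (69.2, 8.35, 51.6, 75.4 and 83.9 CPM) and C4b (84.9, 9.21, 57.1, 142 and 88.98 CPM) were lowest in WT 2. The summed level of the list was 756, 329.6, 629, 991 and 852 CPM.

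Receptors for vasoactive agents were detected for 31 of 44 genes, and most were low. The thrombin receptor gene F2r led at 571, 533, 563, 516 and 571 CPM with a CV of 4.53%. The natriuretic peptide receptors Npr3 (657, 320.0, 518, 589.6 and 543 CPM) and Npr2 (176 ± 28.4 CPM), the vasopressin receptor Avpr1a (144, 76.9, 133, 154 and 152 CPM) and the alpha-1D adrenoceptor Adra1d (39.98 ± 9.51 CPM) followed. Npr3 and Avpr1a were lowest in WT 2. The sphingosine-1-phosphate receptors S1pr3 (16.1, 69.1, 17.4, 11.8 and 15.6 CPM) and S1pr1 (22.2, 48.8, 21.1, 15.2 and 16.1 CPM) were highest in WT 2. The angiotensin receptor gene Agtr1b stood at 2.82 ± 1.64 CPM.

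Ion channel and calcium handling genes were detected for 25 of 42. The sarcoplasmic reticulum pump gene Atp2a2 gave 450.0, 454, 445, 419 and 421 CPM (CV 3.79%), the mechanosensitive channel gene Piezo1 545, 613, 569.8, 461 and 464 CPM, and the calcium channel beta subunit gene Cacnb3 89.8 ± 3.31 CPM. Trpm7 (90.3 ± 4.31 CPM) and Stim1, the store calcium sensor (76.4 ± 3.89), had CVs of 4.77% and 5.09%. The T-type calcium channel gene Cacna1g was apart in WT 2, below the others, with 95.6, 39.9, 94.4, 87.5 and 115 CPM. The chloride channel gene Ano1 was apart above them, with 11.2, 29.2, 10.4, 9.99 and 8.28 CPM. Abcc9, of a potassium channel subunit, gave 8.82, 2.33, 8.91, 18.4 and 12.9 CPM. Caveolar genes, which shape the flask-like pits of the SMC membrane, were abundant: Cavin1 gave 1330.1, 1549, 1160.0, 1095 and 1165 CPM, Cavin2 519, 767, 545, 381 and 391 CPM and Cav1 503, 592, 463, 366 and 331 CPM. These 3 were highest in WT 2, and 7 of the 10 detected members of the list were, against 40.4% of all detected genes. The gap junction gene Gja1, of connexin 43, stood at 119 ± 22.7 CPM.

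Notch genes were detected for 8 of 14. Jag1, a ligand gene, gave 144, 94.03, 139, 167 and 154 CPM and Notch2 141 ± 11.9 CPM. Per kilobase both were above Notch3, the receptor typical of arterial SMCs (43.1, 30.7, 37.9, 58.2 and 52.5 CPM), and Notch1 (28.4, 48.8, 34.3, 32.6 and 25.3 CPM). Notch1 was highest and Notch3 lowest in WT 2. The target gene Hey2 (14.8, 5.32, 11.9, 18.2 and 11.3 CPM) was lowest in WT 2, and the list summed to 604, 586, 609, 679 and 595 CPM, with WT 4 apart above.

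Cell cycle genes were expressed throughout, all 44 of 44, with summed levels of 3674, 4866, 3734, 3358 and 3393 CPM. WT 2 was the highest library for 42 of the 44, against 40.4% of detected genes, and was past the critical gap ratio above the others for 19 of them, against 4.75%. The 2 exceptions were Cdc25c and Ccnd2, the D-type cyclin gene that led the list per kilobase, which gave 1617, 1392, 1598, 1472 and 1546 CPM. Ccnd1, the other main D-type cyclin, gave 139, 610.4, 167, 80.4 and 82.6 CPM and had the widest spread of the list. Rrm2, of ribonucleotide reductase (91.4, 162, 108, 82.7 and 88.2 CPM), the replication helicase genes Mcm2 (34.3, 60.9, 31.9, 25.6 and 25.8 CPM) and Mcm3 (33.6, 61.1, 33.6, 28.1 and 27.99 CPM), and the mitotic genes Cdc20 (55.3, 81.5, 55.5, 52.6 and 49.01 CPM) and Kif20a (100.3, 130.4, 97.8, 94.6 and 83.3 CPM) were all highest in WT 2. Without WT 2 the list's median CV was 6.71%, against 22.7% with it. Cdkn1a, of the inhibitor p21, was present at 367, 414, 399, 329 and 332 CPM and Ccng1, a p53 target, at 719 ± 55.1 CPM, and the p53 gene Trp53 at 91.8, 133, 104, 89.6 and 85.7 CPM.

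Immediate early genes, which respond within minutes to serum and handling, were all detected (19 of 19). Egr1 gave 284, 270.4, 316, 346 and 274 CPM, Fos 39.7, 21.9, 49.2, 60.96 and 52.2 CPM and Junb 185, 140.0, 194, 194 and 189 CPM. Fos, Junb and, only just under WT 5, Egr1 were lowest in WT 2. WT 2 was the lowest library for 9 of the 19, against 35.3% of all detected genes. It was the highest for 5, against 40.4%. Fosl1 was highest in WT 2, with 50.8, 117, 51.5, 28.4 and 31.3 CPM, and Fosl2 (460.2 ± 49.1 CPM) and Klf6 (337 ± 26.5) had CVs of 10.7% and 7.88%.

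**Figure D3:**
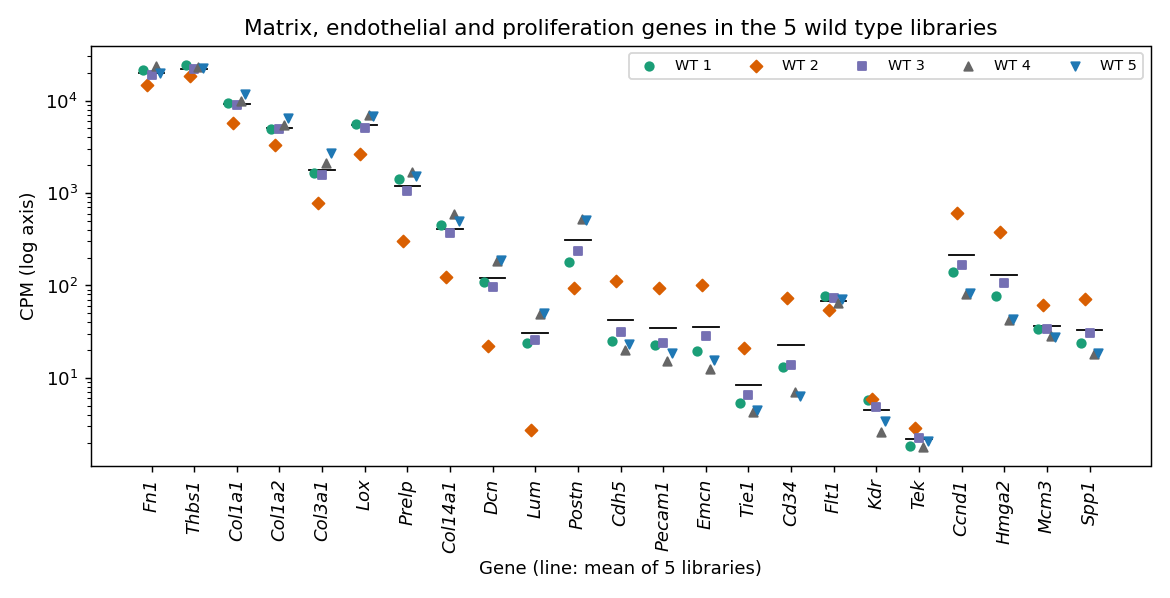
CPM on a log axis for 23 matrix, endothelial, proliferation and related genes, with 1 symbol per wild type library and a line at the mean of 5. WT 2 (orange diamond) is the lowest symbol for Col1a1, Lox, Prelp, Dcn and Lum and the highest for Cdh5, Pecam1, Emcn, Cd34, Ccnd1 and Hmga2, while Flt1, Kdr and Tek show no such gap.

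Markers of other cell types were then compared among libraries. Endothelial markers were detected for 11 of 12, with Cldn5, of a junction protein, at or below 0.332 CPM. They summed to 191, 469, 208, 169 and 179 CPM, highest in WT 2. Cdh5, of VE-cadherin, gave 25.1, 112, 31.6, 20.2 and 23.3 CPM, Pecam1 22.7, 95.1, 23.9, 15.2 and 18.6 CPM, Emcn, of endomucin, 19.6, 101, 28.2, 12.5 and 15.6 CPM and Tie1 5.35, 21.3, 6.47, 4.23 and 4.49 CPM. All 4 were highest in WT 2, Emcn without passing the critical gap ratio, and 9 of the 11 detected markers were highest in it, against 40.4% of all detected genes. Flt1 (76.7, 54.2, 73.6, 64.2 and 70.8 CPM) was lowest in WT 2, and Kdr (5.78, 5.88, 4.84, 2.61 and 3.38 CPM) and Tek (1.84, 2.87, 2.22, 1.79 and 2.09 CPM), the receptors of vascular endothelial growth factor and angiopoietin, were low in all libraries. Per kilobase of exon union, the ratio of Cdh5 to Myh11 was 0.869 in WT 2 and 0.103 to 0.198 in the other 4; on principal transcripts it was 0.776 and 0.0917 to 0.177. The part of the endothelial list in the other differences of WT 2 was not tested.

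Leukocyte markers were detected for 3 of 12 and summed to 43.3, 22.4, 43.9, 29.1 and 33.4 CPM, lowest in WT 2. They were led per kilobase by Lyz2, of lysozyme (17.6, 8.08, 17.9, 12.5 and 12.7 CPM). Lymphocyte markers were detected for 0 of 8 and erythroid markers for 0 of 6, with Cd3e, Cd3g, Cd8a, Ms4a1, Hbb-bs and Alas2 at 0 counts in all 5 libraries. Adventitial fibroblast markers were detected for 13 of 14, and these genes overlap with those of cultured SMCs: Serpinf1 gave 603, 687, 672, 705 and 882 CPM, Gsn, of gelsolin, 564, 639, 549, 514 and 558 CPM, and Pdgfra and Col14a1 were given above. The adventitial list summed to 2269, 1935, 2160.4, 2557 and 2637 CPM, lowest in WT 2. WT 2 was the lowest library for 9 of the 13, against 35.3% of all detected genes. It was the highest for 2 of them, against 40.4%. Pericyte markers (8 of 10 detected) included Cd248 (397, 389, 384, 401 and 453 CPM) and Rgs5 (157, 47.6, 153, 319 and 223 CPM), lowest in WT 2 for Rgs5. Chondrocyte and osteoblast markers were detected for 8 of 13, with Sox9 at 132, 62.3, 129.7, 154 and 119 CPM and Comp at 50.6, 32.98, 29.99, 87.4 and 51.8 CPM, and 5 of the 8 were past the critical gap ratio below the others in WT 2, against 3.65% of detected genes. Cardiac, skeletal muscle and epithelial lists had 1 member detected each, Tnnt2 (1.95 ± 0.477 CPM), Acta1 and Krt19 (10.3, 26.4, 12.1, 7.35 and 9.53 CPM).

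The positional code of these cells was read from the Hox genes, homeobox genes whose expression along the body axis follows their order in 4 clusters. HoxA genes were detected for 9 of 11, HoxB for 8 of 10, HoxC for 7 of 9, and HoxD for 1 of 9, Hoxd8 at 2.15 ± 0.692 CPM. Hoxc8 (35.02 ± 4.52 CPM) was the highest HoxC gene per kilobase with both lengths, while the order within HoxA and HoxB depended on the length used. Hoxa3 (60.2 ± 3.53 CPM) and Hoxb3 (41.8 ± 2.01 CPM) were steady, with CVs of 5.86% and 4.81%. In the middle of the HoxB cluster WT 2 was high: Hoxb8 gave 15.9, 37.1, 14.9, 13.8 and 15 CPM, Hoxb7 7.78, 16.3, 8.09, 8.95 and 7.66 CPM and Hoxb5 10.1, 17.3, 10.3, 10 and 9.67 CPM, all 3 past the critical gap ratio, and Hoxa7 in the HoxA cluster likewise gave 21.9, 38.9, 22.2, 20.3 and 21.3 CPM. Hoxb9, at the posterior end of the detected HoxB genes, was also highest in WT 2, with 24.3, 45.3, 31.9, 23.4 and 28.5 CPM. Several posterior HoxA and HoxC genes had another order. Hoxc10 gave 6.00, 1.27, 12.4, 6.24 and 11.6 CPM, Hoxc9 4.31, 2.85, 7.79, 4.02 and 7.44 CPM and Hoxa10 3.49, 1.49, 6.65, 3.45 and 5.69 CPM, with WT 3 and WT 5 highest and WT 2 lowest in all 3. Hoxa9 gave 4.48, 4.46, 7.59, 4.23 and 6.98 CPM and Hoxc13 2.59, 2.58, 4.38, 1.95 and 3.19 CPM, again with WT 3 and WT 5 as the 2 highest.

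**Figure D4:**
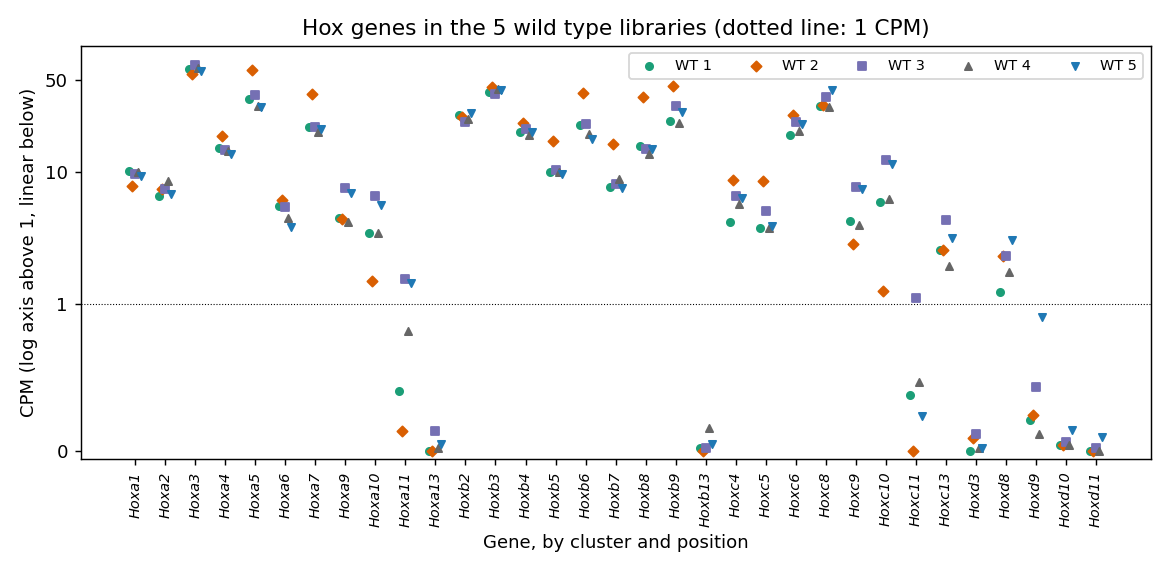
CPM of Hox genes by cluster and position, on an axis that is linear below 1 CPM and logarithmic above it, with 1 symbol per wild type library and a dotted line at 1 CPM. HoxA, HoxB and HoxC genes lie above the line over much of each cluster, HoxD genes other than Hoxd8 lie under it, and WT 3 and WT 5 are the highest symbols at Hoxa10, Hoxc9 and Hoxc10.

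Other transcription factors of the vessel wall were detected for 35 of 51. Id3 (322, 215, 306, 331 and 307 CPM) and Id1 (97.6 ± 10.1 CPM), targets of BMP signalling, led per kilobase with Nfix (575 ± 47.8 CPM), Snai1 (125 ± 8.62), Osr1 (132, 199.5, 144, 108 and 93.2 CPM) and Prrx1 (504, 603, 484, 483 and 479.8 CPM). Prrx1 was apart in WT 2, above a narrow range, and Id3 below one. Tcf21, a factor of adventitial and modulated cells, gave 19.2, 2.60, 12.7, 19.97 and 29.8 CPM.

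All 16 translation factors were detected, and Eef1a1 (5434, 6177, 5417, 5323 and 5641 CPM), Eef2 (2729 ± 153) and Tpt1 (1026 ± 41.8) had CVs of 6.14%, 5.59% and 4.08%. WT 2 was the highest library for 14 of the 16, against 40.4% of all detected genes, and the sum was 16909, 19676, 16916, 15948 and 16994 CPM. Cytosolic ribosomal protein genes held 3.11% ± 0.193 of counts. Glycolysis genes (28 of 29 detected) were led per kilobase by Aldoa (1375 ± 97.03 CPM), Ldha (1063 ± 65.5) and Pkm (1418 ± 156) on exon unions, and WT 5 was the highest library for 16 of the 28, against 16.4% of all detected genes. The hypoxia-responsive genes Pdk1 (42.2, 23.9, 43.5, 54.7 and 64.3 CPM) and Ndrg1 (49.8, 23.9, 41, 86.5 and 70.4 CPM) varied, both lowest in WT 2 and highest in WT 5 or WT 4. Chaperones (23 of 23) were led by Calr (1801 ± 185 CPM) and Hsp90ab1, which was apart in WT 2 (1421, 1999.9, 1415, 1254 and 1295 CPM).

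Cholesterol synthesis and uptake genes were detected for 24 of 25, and WT 4 was the highest library for 20 of the 24, against 21.4% of all detected genes. Sqle, of squalene epoxidase, gave 86.4, 39.99, 65.1, 104 and 80.9 CPM, and the desaturase gene Scd2 gave 219, 141, 188, 313 and 235 CPM. Srebf2, of the factor that activates these genes, gave 126, 112, 116, 139.7 and 125 CPM. In all 3, WT 4 was highest and WT 2 lowest. The summed level of the list had another order, with 3140, 3443, 3335, 3401 and 3146 CPM and WT 2 highest. Lrp1, which led the list per kilobase, stood at 2014 ± 236 CPM.

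Among iron and redox genes, Fth1, the ferritin heavy chain gene, was steady (1711, 1584, 1608, 1676 and 1548 CPM), whereas Ftl1, of the light chain, gave 1103, 1566, 1215, 933 and 1016 CPM with WT 2 highest. Hmox1 (450.0, 854, 468, 283 and 273 CPM), Nqo1 (40.4, 77.02, 32.99, 19.4 and 19.9 CPM) and Txnrd1 (337, 607, 344, 232 and 233 CPM), which are targets of the oxidative stress factor NRF2, all had the order WT 2 first and WT 4 and WT 5 last. Mitochondrially encoded protein genes were detected for 7 of 13, and all 7 were highest in WT 1, against 13.9% of detected genes. mt-Co1 gave 9206, 5852, 7176, 8059 and 6595 CPM and mt-Cytb 4993, 3240.4, 3937, 4349 and 3558 CPM. The 6 others, mt-Co2, mt-Co3, mt-Atp6, mt-Atp8, mt-Nd3 and mt-Nd4l, were all under 1 CPM in every library. How the authors counted reads that match more than 1 place is not given in the sources used here, so their levels are uncertain.

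Genes used as laboratory references were looked at for their spread. Their median CV was 6.70%, against 10.6% over all detected genes. Rplp0 gave 1441, 1488, 1476, 1376 and 1485 CPM, with a CV of 3.24%, and Gapdh 969.9, 1093, 1073, 948 and 1079 CPM, with 6.56%. Actb (19.6%), Hprt (13.6%) and Tfrc (33.2%) were wider, and each was highest in WT 2. WT 2 was the highest library for 14 of the 18 genes, against 40.4% of all detected genes. It was the lowest for 0 of them, against 35.3%. For all 18 genes the sum was 18412, 23095, 18929.5, 17352 and 18525 CPM, led by Actb.

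Over all 12121 detected genes the median CV was 10.6%, with quartiles of 6.43% and 17.2%, and 217 genes (1.79%) exceeded 50%. Without WT 2 the median was 6.99%, and 25 genes (0.206%) exceeded 50%. The CV was largest for the lowest genes, with medians of 15.5% between 1 and 10 CPM, 8.95% between 10 and 100 CPM and 8.93% between 100 and 1000 CPM, and it was 12.0% for the 111 genes above 1000 CPM. The common biological coefficient of variation, the spread beyond counting error estimated by edgeR, was 18.8% for 14360 genes, and 10.7% without WT 2. Noncoding RNA genes had a median CV of 16% over 445 detected.

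**Figure D5:**
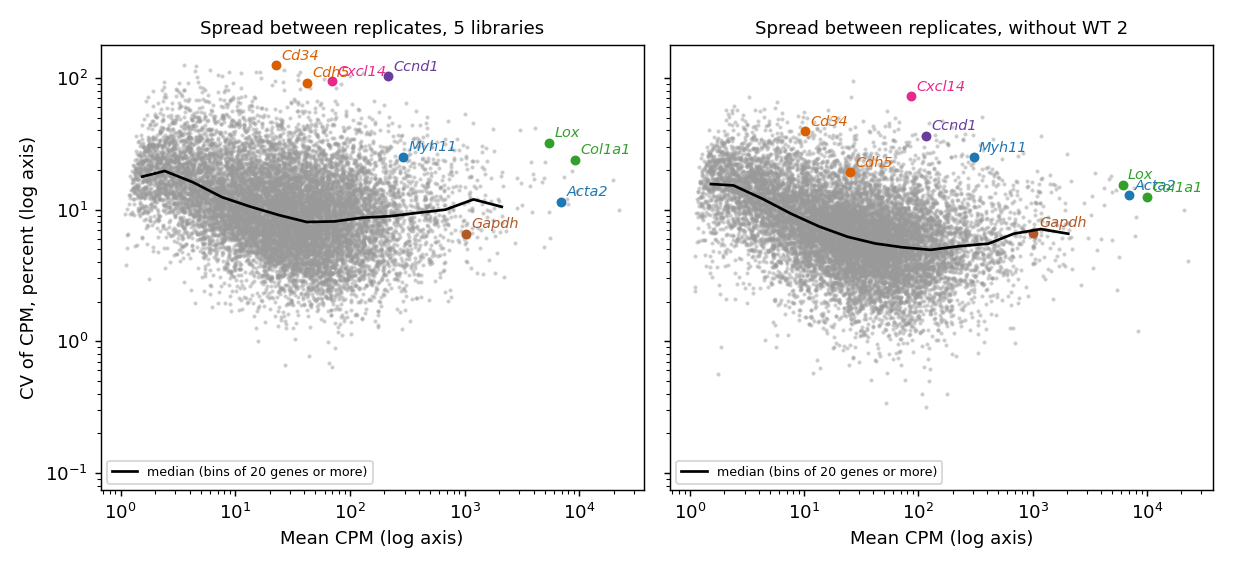
Coefficient of variation of CPM in percent against mean CPM, both on log axes, for all detected genes with 5 libraries (left) and without WT 2 (right); the line is the median in bins of mean level. Cd34, Cdh5 and Ccnd1 move down when WT 2 is left out, while Cxcl14, Myh11 and Acta2 keep most of their spread.

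The 10 most variable protein coding genes with a mean of at least 10 CPM were all highest in WT 2. They were the progenitor and endothelial surface gene Cd34 (13.2, 72.4, 13.7, 7.00 and 6.31 CPM), the endothelial genes Plvap (12.3, 81.4, 18.9, 9.32 and 12.3), Mmrn2 (7.82, 45.5, 10.7, 5.58 and 6.62), Esam (5.72, 33.3, 8.37, 3.45 and 5.54) and Emcn, the chromatin genes Hmga2 (77.1, 379, 108, 42.1 and 43.3), Hmga1 (64.04, 283, 85.7, 32.2 and 37.6) and Hmga1b (20.5, 107, 30.7, 11.5 and 12.5), the protocadherin gene Pcdh9 (9.77, 48.6, 11.97, 6.01 and 6.00), and Ccnd1. Hmga1b is a near copy of Hmga1, so reads may have been split between them. Of the 217 detected genes with a CV over 50%, 134 were highest in WT 2, against 40.4% of all detected genes, and 76 lowest, against 35.3%. Since WT 2 itself widens the spread, this follows in part from the choice of genes. Among those 134, the library next to WT 2 was WT 3 for 87, WT 1 for 32, WT 5 for 12 and WT 4 for 3. Among the 76, it was WT 3 for 50, WT 1 for 23 and WT 5 for 3, so WT 3 was the library most often next to WT 2 on either side. The same shares over all detected genes were not computed, and WT 3 was also nearest to WT 2 on the first principal component. These counts therefore do not set the variable genes apart from the rest.

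The genes furthest above in WT 2 among those past the critical gap ratio, with a mean of at least 5 CPM, were Prkg2, of a cyclic GMP-dependent kinase (4.56, 26.2, 5.81, 3.49 and 3.94 CPM), Nos3, of endothelial nitric oxide synthase (3.66, 21.8, 4.50, 3.86 and 4.15), Parvb, of a focal adhesion protein (11.01, 46.8, 12.1, 6.96 and 7.73), Cdh5 and Pecam1. Nos3 shares exon bases with a neighbouring gene. Those furthest below were the acute phase gene Serpina3n (225, 16.4, 148, 351 and 257 CPM), Lum, C3, the convertase gene Pcsk5 (67.1, 10.7, 59.2, 114 and 95.9) and Xkr4 (11.6, 1.65, 9.07, 17.96 and 12.4). Serpina3n had the widest gap, with WT 2 at 16.4 CPM against 148 to 351 in the other 4.

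Departures of single libraries other than WT 2 were smaller. WT 5 was furthest above the others for Igfbp3, Garem2 (8.52, 8.60, 9.03, 8.85 and 12.9 CPM), Cnn1, Myl9 and Acta2, and furthest below for the small GTPase regulator genes Arap2 (7.30, 6.92, 6.79, 6.34 and 4.46 CPM) and Srgap1 (34.7, 37.4, 36.5, 35.2 and 24.96 CPM). WT 4 was apart above for Plagl1, an imprinted zinc finger gene (13.2, 12.8, 9.79, 29.5 and 11.6 CPM), and for Foxo1 (26.9, 25.5, 26.8, 33 and 26.2 CPM). WT 1 was apart above for Net1, of a guanine nucleotide exchange factor (31.2, 22.3, 22.02, 24.1 and 23.4 CPM), and WT 3 for Ldah, of a lipid droplet hydrolase (32.02, 33.1, 46.97, 34.4 and 33.6 CPM).

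The steadiest protein coding genes with a mean of at least 10 CPM differed between libraries by about 1% of their level. Cyhr1 gave 69.9, 69.8, 69.9, 70.4 and 70.9 CPM (CV 0.638%), Fam160a2 26.6, 26.99, 27.1, 26.95 and 26.96 CPM (CV 0.659%) and Mdh1, of cytosolic malate dehydrogenase, 66.4, 65.4, 65.6, 65.3 and 65.98 CPM (CV 0.690%). The lysosomal sorting gene Vps37a (0.774%), the glucokinase gene Adpgk (0.895%) and the chromatin gene Wdr82 (0.989%) followed. Such small values are the extreme of many genes, and a CV from 5 libraries is itself uncertain.

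Of the noncoding RNA genes, Meg3, an imprinted long RNA, gave 989, 619.7, 1013, 1205 and 1308 CPM, and the nuclear RNAs Neat1 (760.0, 377, 734, 676 and 668 CPM) and Malat1 (471, 324, 481, 464 and 478 CPM) were next by CPM. All 3 were lowest in WT 2, and Neat1 and Malat1 were past the critical gap ratio there. Without WT 2, Malat1 had a CV of 1.57%. H19, which is imprinted as well, gave 14.5, 6.90, 10.1, 32.4 and 21.7 CPM with WT 4 highest. WT 2 was the lowest library for 17 of the 26 detected members of the noncoding list, against 35.3% of all detected genes, and 6 of them were past the critical gap ratio below the others, against 3.65%.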

How the data were processed

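Polyadenylated RNA of 5 wild type libraries was analysed. The authors deposited raw counts per gene. The submitters' processing notes name bcl2fastq 2.17, Trim Galore 0.4.3, STAR 2.5.2a and the mm10 build; the counter, annotation and strand setting are not given in the sources used here, so genes that overlap on either strand, and near-identical copies, are uncertain. Of 54446 gene identifiers, 54409 matched GENCODE M21, and the other 37 held 0.00278% of counts. TMM factors and the biological coefficient of variation came from edgeR 4.0.16 (R 4.3.3), with DESeq2 1.42.0 as an alternative. The gap ratio used log2 CPM with a prior count of 2 and a critical value of 0.71. Levels per kilobase used the exon union or, added after the data were seen, the principal transcript. No groups were compared and no p-value was computed. On simulated counts, a spread common to all genes was recovered; with gene-specific spreads and shifted genes, the median spread was estimated too high, and the gap ratio missed most shifts of the smaller size simulated.

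Members and the 61 gene lists were chosen with earlier results of these data known. Genes named were those of 4 rules: the markers and Kit, detected members of gene families, members of the other lists highest per kilobase or most variable, and the most abundant, variable, steady or apart genes. Actc1, Cdc25c, Cldn5, Des, Eln, Kitl, Ldb3, Mrtfa, Mrtfb, Vcl and the 6 undetected mitochondrial genes were named after their values were seen. A few genes are not reported here.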

Additional observations from a re-analysis of the deposited data

Results flagged for a closer look

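Each result here had 1 library whose distance to its nearest neighbour passed Dixon's 95% critical value for groups of 5. Chance flags about 1 in 20 groups. Of 74 measures of libraries and gene lists 12 passed it, and of 307 detected genes named in the text 55 did. Many of these genes were named because they were past it, so these counts support nothing, and no cause was tested.

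Among library measures, 12534 genes reached 1 CPM in WT 2, fewer than in the other 4. WT 2 had the most genes past the critical value above (576) and below (442). By summed level WT 2 was above the others for cell cycle genes (4866 CPM), endothelial markers (469 CPM), HoxB genes (249.7 CPM), laboratory reference genes (23095 CPM) and translation factors (19676 CPM, or 1.99% of counts). WT 2 was below them for the noncoding RNA list (2058 CPM). WT 5 was above them for myosin light chains (2476 CPM) and WT 4 for the Notch list (679 CPM).

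WT 1 lay above the other 4 libraries for Net1 (31.2 CPM) and Vcl (1492 CPM). WT 2 lay above the other 4 libraries for Actg1 (1850 CPM), Ano1 (29.2 CPM), Cdc20 (81.5 CPM), Cdh5 (112 CPM), Hoxa7 (38.9 CPM), Hoxb5 (17.3 CPM), Hoxb7 (16.3 CPM), Hoxb8 (37.1 CPM) and Hsp90ab1 (2000 CPM). It also lay above them for Itga3 (90.3 CPM), Mcm3 (61.1 CPM), Nos3 (21.8 CPM), Nt5e (6.02 CPM), Parvb (46.8 CPM), Pecam1 (95.1 CPM), Prkg2 (26.2 CPM), Prrx1 (603 CPM) and S1pr3 (69.1 CPM). Further genes with WT 2 above the rest were Srgn (11.6 CPM), Tie1 (21.3 CPM) and Vim (5297 CPM). WT 2 lay below the other 4 libraries for Avpr1a (76.9 CPM), C3 (8.35 CPM), Cacna1g (39.9 CPM), Col5a1 (2027 CPM), Fbln2 (6414 CPM), Id3 (215 CPM), Itgb5 (220.1 CPM), Itgb8 (2.51 CPM) and Junb (140.0 CPM). It also lay below them for Lum (2.76 CPM), Malat1 (324 CPM), Myl12b (6.72 CPM), Neat1 (377 CPM), Pcsk5 (10.7 CPM), Pdgfrb (519 CPM), Plod2 (509 CPM), Prelp (300.0 CPM) and Serpina3n (16.4 CPM). Further genes with WT 2 below the rest were Sox9 (62.3 CPM) and Xkr4 (1.65 CPM). WT 3 lay above the other 4 libraries for Ldah (46.97 CPM). WT 4 lay above the other 4 libraries for Foxo1 (33 CPM) and Plagl1 (29.5 CPM). WT 5 lay above the other 4 libraries for Acta2 (8376 CPM), Cd248 (453 CPM), Cnn1 (622 CPM), Garem2 (12.9 CPM), Igfbp3 (46.9 CPM) and Myl9 (1119 CPM). WT 5 lay below the other 4 libraries for Arap2 (4.46 CPM), Pdgfra (256 CPM) and Srgap1 (24.96 CPM).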

How the results depend on the processing

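Leaving out 1 library at a time gave a common biological coefficient of variation between 10.7% (without WT 2) and 21.2%, and a median CV between 6.99% (without WT 2) and 11.5%. A scaled median absolute deviation in place of the SD gave a median of 7.59%. Gap ratios on CPM in place of log2 CPM put WT 2 above the others for 907 genes and below for 262. No paired analysis was possible because only 1 group was used and no groups were compared. Mean levels of the 318 genes named moved by less than 1 SD in 2840 of 2854 cases over 9 settings. The other 14 came from TMM factors over all 10 libraries (7 genes) and from leaving mitochondrial genes out of the total (7 genes). Some of the 9 settings left out 1 library each. In a group this small, that shifts a mean by less than 1 SD for any values, apart from small changes in scaling. Those settings therefore could not show whether mean levels depend on WT 2 or on any other single library. Levels per kilobase moved by more than 1 SD for 161 of 318 genes with the principal transcript, a choice made after seeing the data, and for 250 with the mean transcript length. Depth limits mainly the genes near 1 CPM, where the median CV was 15.5%, and a count of 0 allows up to 3 counts.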

Other observations

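Genes of class I antigen presentation were detected for 9 of 11. B2m, of the invariant chain, gave 327, 392, 344, 364 and 359 CPM, H2-D1 52.7, 68.4, 52.6, 54.5 and 61.5 CPM and H2-K1 18.5, 21.9, 18.4, 21.1 and 24.7 CPM, and Tapbp, of the loading factor tapasin, 47.3, 42.8, 45.8, 58.6 and 58.4 CPM. The heavy chain genes are close relatives, so reads may have been split between them. Tapbp was lowest and B2m highest in WT 2.

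Calcification regulators were detected for 12 of 20. Mgp, of the calcification inhibitor matrix Gla protein, gave 327, 265, 303, 404 and 356 CPM and Tnfrsf11b, of osteoprotegerin, 308, 116, 215, 362 and 316 CPM, both lowest in WT 2 and highest in WT 4. The phosphate transporter genes Slc20a1 (72.3, 87.1, 71.9, 63.6 and 70.4 CPM) and Slc20a2 (66.7, 77.3, 72.3, 58.7 and 54.9 CPM) were highest in WT 2. Nt5e, of the enzyme that makes adenosine from AMP, was low, with 1.88, 6.02, 1.66, 1.19 and 1.20 CPM and WT 2 highest.

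The neuropeptide genes Penk (17.05, 2.96, 10.5, 51.5 and 22.7 CPM) and Cck (46.1, 34.1, 94.1, 22.9 and 50.1 CPM) were among the 10 protein coding genes that stayed most variable once WT 2 was left out, and they had different orders, with WT 4 highest for Penk and lowest for Cck.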
